A study of Mus musculus with 30 samples.

Results

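The genes described here are 8 markers and regulators of mouse macrophages: the receptors Csf1r, Mertk, Adgre1, Itgam and Cd14, the lysosomal or secreted proteins Cd68 and Lyz2, and the transcription factor Maf. They were chosen by symbol, through the Ensembl gene IDs of the deposited count files, and are 8 of the 43629 gene IDs in each file. All 8 passed the filter on low counts in both experiments, which left 12824 genes in the wild type experiment and 12382 in the short hairpin RNA (shRNA) experiment. The cells were C57BL/6 macrophages grown from bone marrow in 20 ng/mL CSF-1, which turns marrow progenitors into macrophages, and harvested from cultures of day 7. Wild type cells formed 4 groups: no stimulus, 20 ng/mL IL-4, IL-4 with 10 µM prostaglandin E2 (PGE2), and IL-4 with 10 nM valinomycin. Cells that had received lentivirus with a control shRNA or with one that targets Etv1, which encodes an ETS factor, formed 3 groups each: no stimulus, IL-4, and IL-4 with PGE2. Per the labels' protocol CSF-1 was also present during stimulation, and each of the 10 groups had 3 libraries. The labels name 1 Etv1 shRNA group without the hairpin sequence or the number of hairpins, and give neither a stimulation time nor the mice behind each library. P-values therefore measure the spread between these libraries, which may be technical. In such bulk RNA, fewer cells that express a gene and less of its RNA in each cell cannot be told apart.

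Csf1r is the receptor through which CSF-1 keeps macrophages alive, and its gene is among the earliest marks of the lineage. Lineage genes of macrophages are bound by PU.1, an ETS family factor, with partners of the C/EBP, IRF and MAF families, and c-Maf, the product of Maf, is known for holding back proliferation in response to CSF-1. IL-4 acts through STAT6 and drives the alternative state of macrophages. Signalling by PGE2 runs largely through cyclic AMP. Valinomycin, a potassium ionophore, lowers the membrane potential of mitochondria.

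The stretch of 250 bases before the RefSeq start site (GRCm38.p6) was at hand for 4 of the 8 genes. All 4 are shown. Under the Etv1 hairpin, described further on, Cd68 and Lyz2 fell in all 3 conditions, Mertk in 2 and Itgam in none by the main test. A link between the motifs and these responses was not tested. Capitals mark matches, on either strand, to 6 short motifs: the PU.1 core GAGGAA, the ETS core CCGGAA, the cyclic AMP response core TGACG, the AP-1 motif TGANTCA, the MAF recognition core TGCTGA and the STAT6 motif TTCNNNNGAA. The Cd68 stretch (chr11:69666171-69666420, minus strand) is followed by those of Lyz2 (chr10:117282273-117282522, minus strand), Itgam (chr7:128062390-128062639, plus strand) and Mertk (chr2:128698665-128698914, plus strand).
Cd68: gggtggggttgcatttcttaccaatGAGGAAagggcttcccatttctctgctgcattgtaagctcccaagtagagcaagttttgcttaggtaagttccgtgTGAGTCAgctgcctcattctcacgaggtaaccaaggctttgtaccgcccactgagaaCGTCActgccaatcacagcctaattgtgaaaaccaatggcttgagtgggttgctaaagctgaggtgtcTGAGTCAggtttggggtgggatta
Lyz2: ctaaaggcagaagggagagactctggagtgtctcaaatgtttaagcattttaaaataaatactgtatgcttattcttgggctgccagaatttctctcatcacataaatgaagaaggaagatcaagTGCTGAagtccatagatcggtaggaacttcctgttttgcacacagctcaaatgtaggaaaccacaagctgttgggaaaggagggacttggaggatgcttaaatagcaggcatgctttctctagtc
Itgam: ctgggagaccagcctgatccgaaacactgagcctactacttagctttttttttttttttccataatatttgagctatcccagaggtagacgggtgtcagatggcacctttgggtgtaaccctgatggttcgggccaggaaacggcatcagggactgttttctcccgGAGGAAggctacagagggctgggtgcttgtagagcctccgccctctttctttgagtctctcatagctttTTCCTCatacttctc
Mertk: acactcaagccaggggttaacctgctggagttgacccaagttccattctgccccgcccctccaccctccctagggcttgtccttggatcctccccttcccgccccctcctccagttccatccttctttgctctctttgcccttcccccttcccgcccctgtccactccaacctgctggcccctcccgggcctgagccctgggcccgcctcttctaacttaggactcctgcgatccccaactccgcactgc
In the Cd68 stretch the PU.1 core began 225 bases before the start, AP-1 motifs began 149 and 24 bases before it, and a cyclic AMP response core on the opposite strand began 92 bases before it. Itgam had PU.1 cores 84 bases before the start and, on the opposite strand, 15 bases before it. Lyz2 held 1 match, a MAF recognition core 125 bases before the start, and the Mertk stretch held none of the 6 motifs. Over all 32851 promoter stretches of this length, 23.3% held the PU.1 core, 12% the ETS core, 17.8% the cyclic AMP response core, 6.75% the AP-1 motif, 16.1% the MAF core and 5.85% the STAT6 motif. These matches are descriptions of letters, and no binding was measured.

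Wild type libraries held 10514496 to 13414293 counts each, and shRNA libraries 6924973 to 30473040. Levels are given as CPM, counts divided by the scaled library size, computed within each experiment, so levels are compared within an experiment only. Etv1 itself read 10.4 to 10.9 CPM in unstimulated control shRNA libraries and 2.51 to 4.84 CPM in Etv1 shRNA libraries, 11.5 to 15.3 against 4.97 to 6.00 CPM with IL-4, and 21.8 to 33.1 against 7.72 to 9.86 CPM with IL-4 and PGE2. It was lower with its hairpin in every condition without overlap. The summed level of 20 other macrophage markers was 23885 to 29892 CPM in wild type libraries. Summed markers of dendritic cells, T, B and NK cells, mast cells, eosinophils, stromal cells and erythroid cells each stayed at or below 12.9 CPM in every library. The 12 markers of neutrophils and their progenitors summed to 230 to 360 CPM in wild type libraries. In the shRNA experiment, the library numbered 2 was the lowest of its 3 in all 6 groups for both Adgre1 and Itgam. The main tests leave such shared deviations in the error. An alternative fit with the library number in the model is given at the end.

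Per kilobase of annotated exon, the unit for comparing genes, the wild type mean over all 12 libraries was highest for Lyz2 at 6911 CPM per kb, rank 1 of all genes tested. Cd68 followed at 1222, Adgre1 at 590.0, Csf1r at 428, Itgam at 275, Cd14 at 235, Maf at 43.8 and Mertk at 16.7 CPM per kb. Lyz2 also ranked 1 in the shRNA experiment, at 6242 CPM per kb. The span of the group means was narrow for Csf1r in wild type cells, 1.27-fold between the highest and the lowest group, and wide for Cd14 at 21.8-fold and Maf at 4.26-fold. It was 2.00-fold for Mertk and at most 1.55-fold for Adgre1, Cd68, Itgam and Lyz2.

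**Figure D1:**
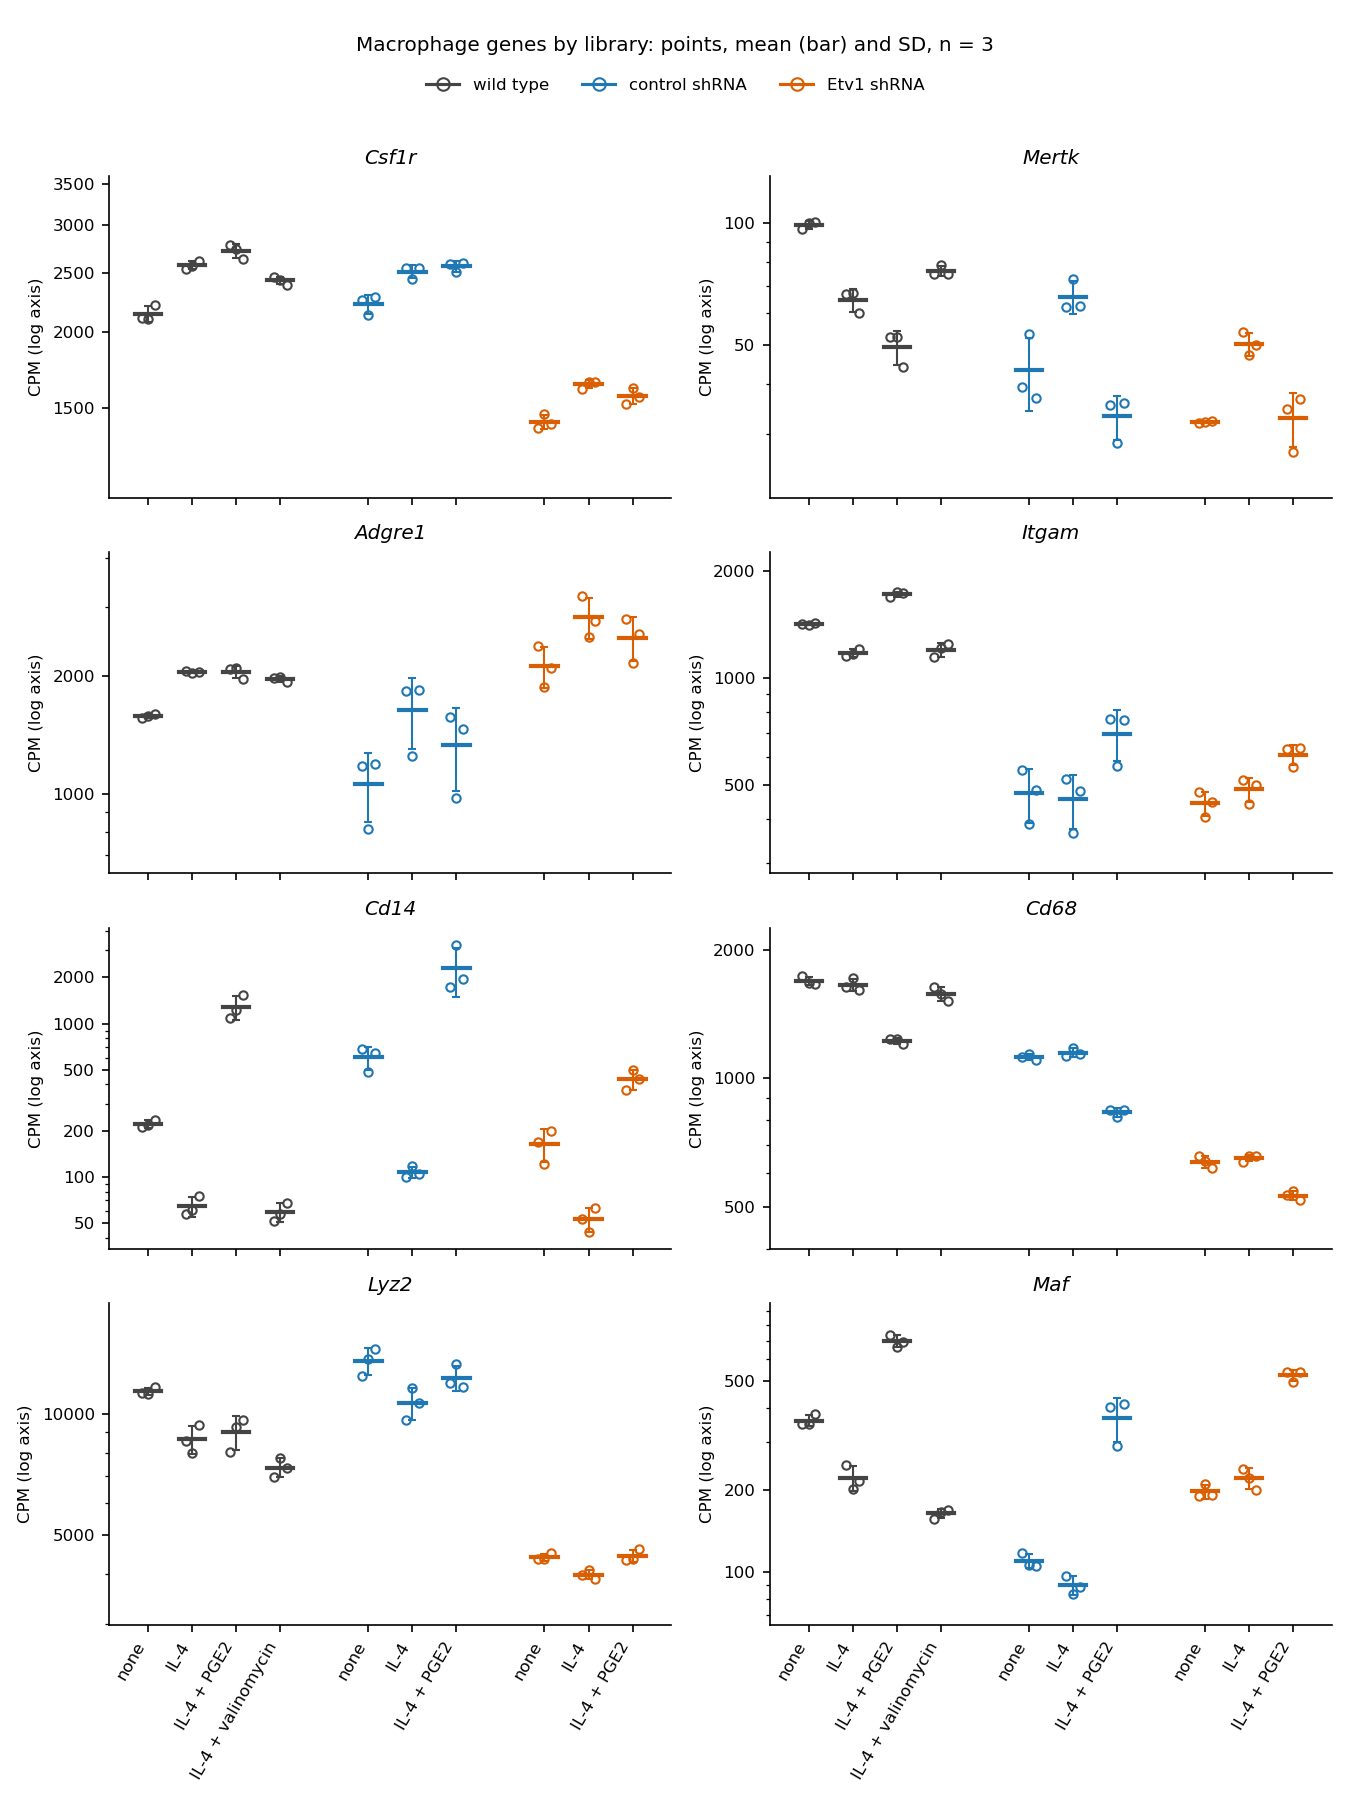
Level of each gene in every library (CPM on a log axis, points), with the mean (bar) and SD (whiskers) of 3 libraries per group; dark grey is wild type, blue control shRNA and orange Etv1 shRNA, and the stimuli run along the horizontal axis. Within each kind of cells Cd14 and Maf are highest with IL-4 and PGE2, and Lyz2, Cd68 and Csf1r are lower in all orange than in all blue groups.

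Each stimulus was compared with edgeR's quasi-likelihood test, with Benjamini-Hochberg adjustment over all genes tested and calls at an adjusted p under 0.05; fold changes are log2 values ± SE. With IL-4 alone, wild type cells had more Csf1r and Adgre1 and less Lyz2, Cd14, Itgam, Mertk and Maf, so 2 of the 8 genes rose and 5 fell, while 46.4% of all genes tested were called. PGE2 on top of IL-4 raised Cd14, Itgam and Maf and lowered Cd68 and Mertk (3 higher and 2 lower, against 59.4% of all genes called). Valinomycin on top of IL-4 raised Mertk and lowered Lyz2 and Maf (1 higher and 2 lower, against 38.4%). With PGE2 rather than valinomycin added to IL-4, Csf1r, Lyz2, Cd14, Itgam and Maf were higher and Cd68 and Mertk lower (5 and 2, against 63.2%). The median log2 fold change of the 8 genes was -0.34 for IL-4, 0.067 for PGE2 and -0.078 for valinomycin, beside 0.010, 0.0058 and -0.027 over all genes tested.

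In control shRNA cells, IL-4 raised Csf1r, Adgre1 and Mertk and lowered Lyz2, Cd14 and Maf (3 higher and 3 lower, against 34.3% of all genes called). PGE2 there raised Lyz2, Cd14, Itgam and Maf and lowered Cd68 and Mertk (4 and 2, against 59.4%). In Etv1 shRNA cells, IL-4 raised Csf1r and Mertk and lowered Cd14 (2 and 1, against 18%), and PGE2 raised Cd14 and Maf and lowered Cd68 and Mertk (2 and 2, against 47.5%). The PGE2 response of Cd14, Maf, Cd68 and Mertk thus had the same direction and passed the test in all 3 kinds of cells.

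**Figure D2:**
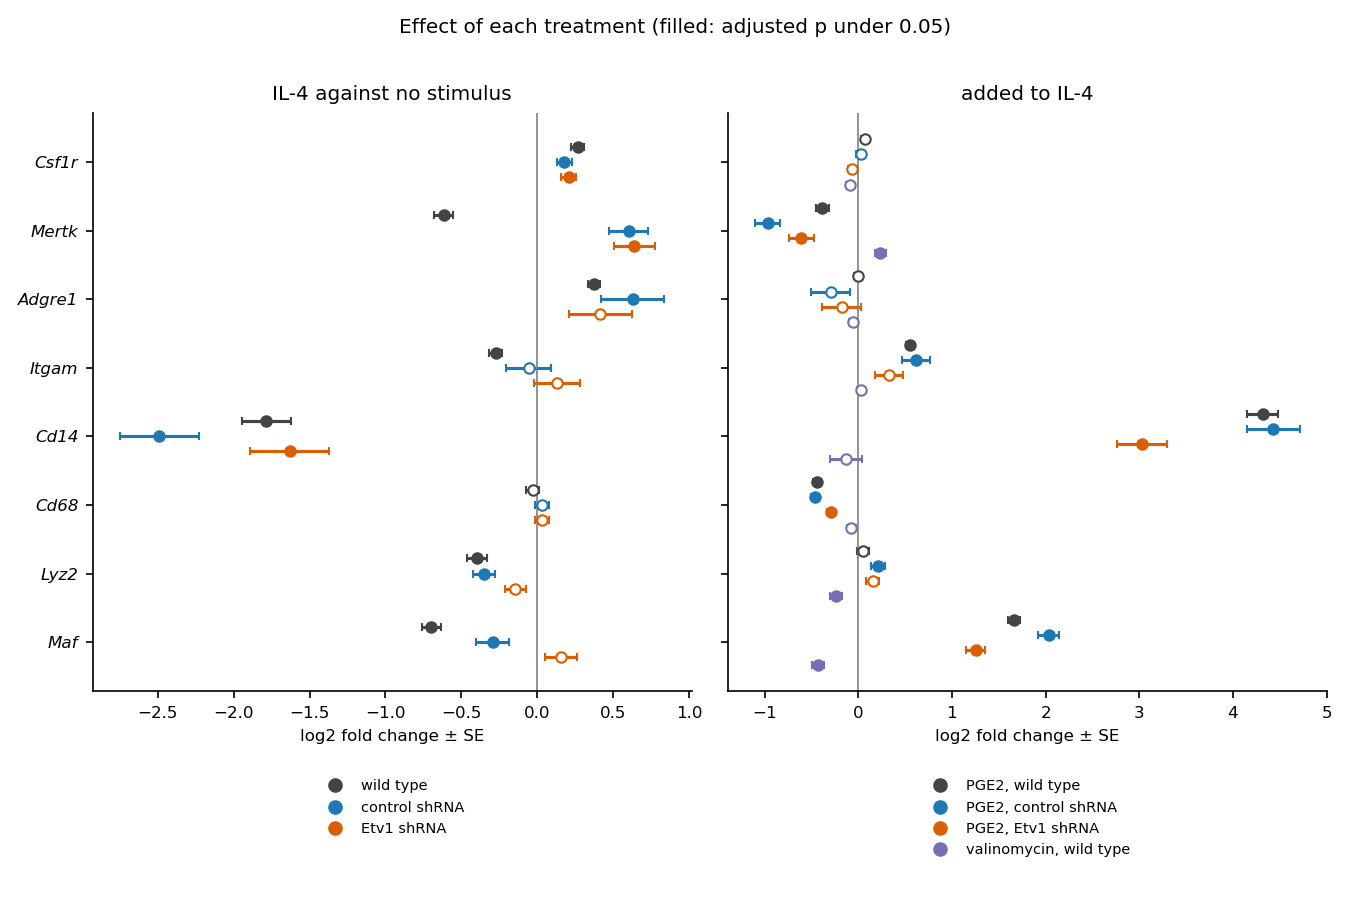
Log2 fold change ± SE of each gene for IL-4 against no stimulus (left) and for PGE2 or valinomycin added to IL-4 (right) in wild type (dark grey, and purple for valinomycin), control shRNA (blue) and Etv1 shRNA cells (orange); filled points passed an adjusted p under 0.05. Mertk lies below 0 for IL-4 in wild type cells and above 0 in both shRNA backgrounds, and Cd14 shows the largest PGE2 effects of the 8 genes.

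Csf1r (chromosome 18), the CSF-1 receptor, varied least of the 8 genes in wild type cells. It read 2114, 2105 and 2218 CPM in unstimulated wild type libraries, 2546, 2571 and 2623 with IL-4, 2780.0, 2745 and 2643 with PGE2 added and 2465, 2440.1 and 2396 with valinomycin added. The 4 groups did not overlap, with PGE2 highest and no stimulus lowest. IL-4 raised Csf1r by 0.27 ± 0.043 (adjusted p = 1.68e-05), and neither PGE2 (0.078 ± 0.043, adjusted p = 0.124) nor valinomycin (-0.084 ± 0.043, adjusted p = 0.129) passed the test against IL-4. The control shRNA libraries read 2257, 2133 and 2285 CPM without stimulus, 2550.5, 2448 and 2553 with IL-4 and 2589, 2509.9 and 2602 with PGE2. In Etv1 shRNA libraries the values were 1391, 1468 and 1414 CPM without stimulus, 1616, 1656 and 1659 with IL-4 and 1526, 1622 and 1567 with PGE2. All 9 Etv1 shRNA libraries lay below all 9 control shRNA libraries. IL-4 raised Csf1r in control (0.18 ± 0.048, adjusted p = 0.00609) and Etv1 shRNA cells (0.21 ± 0.048, adjusted p = 0.00383). Counts of Csf1r could include reads of Hmgxb3, which overlaps it on the other strand and had 314 to 1444 counts per library, since the strand setting of the counting is not given in the sources used here.

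Around Csf1r, 13 of 14 listed ligand, receptor and signalling genes were tested. IL-4 raised 7 and lowered 4 of them (Dok1, Grb2, Inpp5d and Plcg2) in wild type cells, and PGE2 raised 3 (Csf2rb, Csf2rb2 and Inpp5d) and lowered 9. Of all 12824 genes tested, IL-4 raised 3084 and lowered 2868, and PGE2 raised 3837 and lowered 3780. Genes given in brackets after such a count were chosen after their values were seen. Cbl, the ubiquitin ligase that takes activated CSF-1 receptor out of service, rose with IL-4 (0.92) and fell when PGE2 was added (-0.21). Inpp5d, the inositol phosphatase SHIP1, fell with IL-4 (-0.35) and rose with PGE2 (0.83). Ptprj, a receptor tyrosine phosphatase, rose with IL-4 (0.60) and fell with PGE2 (-0.74). The alternative ligand Il34 had 0 counts over at least 1 group and was not tested. These are log2 fold changes that passed the test; the medians of the list were 0.60 for IL-4 and -0.17 for PGE2.

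Mertk (chr2:128698956-128802894, plus strand) encodes the receptor tyrosine kinase that binds apoptotic cells through Gas6 and protein S. The 4 wild type groups read 96.7, 100.0 and 101 CPM without stimulus, 67.0, 67.3 and 59.8 with IL-4, 52.3, 52.2 and 44.0 with PGE2 added and 74.9, 78.9 and 74.9 with valinomycin added. No stimulus was highest, valinomycin next, then IL-4 alone and PGE2, with no overlap between groups. IL-4 lowered Mertk (-0.62 ± 0.061, adjusted p = 1.01e-08), PGE2 lowered it further (-0.38 ± 0.065, adjusted p = 2.34e-05), and valinomycin raised it (0.24 ± 0.062, adjusted p = 0.00399). In control shRNA libraries the order was another: 39.4, 53.3 and 37.0 CPM without stimulus, 61.9, 72.7 and 62.3 with IL-4 and 35.5, 28.5 and 35.8 with PGE2. Every IL-4 library lay above every unstimulated and every PGE2 library. Etv1 shRNA libraries read 32.0, 32.2 and 32.5 CPM without stimulus, 53.7, 47.1 and 50.1 with IL-4 and 34.7, 27.2 and 36.8 with PGE2. IL-4 thus raised Mertk in control (0.60 ± 0.13, adjusted p = 0.00116) and Etv1 shRNA cells (0.64 ± 0.13, adjusted p = 0.00216), and PGE2 lowered it in both (-0.97 ± 0.13, adjusted p = 5.98e-06 and -0.61 ± 0.13, adjusted p = 0.00109). The annotated antisense gene on the other strand, Gm14011, had 0 counts in every library.

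The opposite sign of the IL-4 response of Mertk in wild type and control shRNA cells was tested in a joint fit of all 30 libraries over 13358 genes, a comparison added after the values were seen. The IL-4 effect was larger in control shRNA than in wild type cells by 1.24 ± 0.15 (adjusted p = 2.13e-06), the only such difference among the 8 genes, while 9.18% of all genes differed. The PGE2 effect was more negative in control shRNA cells, with a difference of -0.59 ± 0.15 (adjusted p = 0.00617), again in 1 of 8 genes, while 19.1% of all genes differed. In that fit Maf had differences of 0.42 ± 0.14 (adjusted p = 0.0525) for IL-4 and 0.36 ± 0.14 (adjusted p = 0.0662) for PGE2, which missed the threshold and passed it under some other settings. Wild type and shRNA libraries are separate experiments, and transduction, culture and sequencing run cannot be told apart here.

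Among 19 listed efferocytosis genes, which serve the uptake of dying cells, 16 were tested in wild type cells. IL-4 raised 2 (Itgb3 and Stab2) and lowered 6, and PGE2 raised 5 (Cd36, Elmo1, Itgav, Itgb3 and Stab1) and lowered 7, with medians of -0.14 and -0.11. Of all genes tested, 46.4% were called with IL-4 and 59.4% with PGE2. Itgb3, the beta 3 integrin chain that with alpha V binds Mfge8 on dying cells, rose with IL-4 (3.63) and again with PGE2 (0.82). Stab1, a scavenger receptor for phosphatidylserine, fell with IL-4 (-1.11) and rose with PGE2 (0.76). Gas6, the ligand of Mertk, fell with IL-4 (-0.76) and with PGE2 (-0.94), so receptor and ligand fell together in both steps. Adgrb1, Stab2 and Timd4 had 0 counts over at least 1 group.

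Adgre1 (chr17:57358691-57483527, plus strand) encodes F4/80, the adhesion receptor that is the usual surface marker of mouse macrophages. It read 1559, 1586 and 1598 CPM in unstimulated wild type libraries, 2063, 2033 and 2052 with IL-4, 2083, 2094 and 1966 with PGE2 added and 1981, 1986 and 1927 with valinomycin added. The unstimulated libraries lay below all others, and the other neighbours in the order of levels overlapped. IL-4 raised Adgre1 by 0.37 ± 0.042 (adjusted p = 8.4e-08). Control shRNA libraries read 1175, 815 and 1195 CPM without stimulus, 1830.4, 1248 and 1843 with IL-4 and 1573, 974 and 1465 with PGE2. Etv1 shRNA libraries read 2387, 1875 and 2096 CPM without stimulus, 3194, 2521 and 2766 with IL-4 and 2794, 2163 and 2561 with PGE2. Every Etv1 shRNA library lay above every control shRNA library, the lowest at 1875 and the highest control at 1843 CPM. IL-4 raised Adgre1 in control shRNA cells (0.63 ± 0.21, adjusted p = 0.0332), a call lost without the unstimulated control shRNA library 2 (0.47) or without control shRNA IL-4 library 1 (0.55) or 3 (0.54). In Etv1 shRNA cells the IL-4 difference was 0.42 ± 0.21 (adjusted p = 0.215). It passed in the alternative fit with the library number in the model, as did a fall with PGE2 in control shRNA cells.

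Of 6 adhesion receptors related to Adgre1, 5 were tested. Adgre5, also called CD97, fell with IL-4 (-0.77) and with PGE2 (-0.52) in wild type cells. Adgrg1 fell with IL-4 (-0.86) and rose with PGE2 (1.46), and Adgrg6 fell with both (-0.64 and -0.63). IL-4 lowered these 3 of the 5, the other way from Adgre1, and the other 2 did not pass the test, while 46.4% of all genes were called. Of these 3, Adgrg1 also fell with IL-4 in control shRNA cells (-1.13). Adgre5 (-0.46) and Adgrg6 (-0.00082) did not pass there. Adgrl4 had 0 counts over at least 1 group.

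Itgam (chr7:128062640-128118491, plus strand) encodes CD11b, the alpha chain of complement receptor 3, which pairs with the beta 2 chain Itgb2. In wild type libraries it read 1423, 1416 and 1432 CPM without stimulus, 1155, 1169 and 1208 with IL-4, 1688, 1747 and 1733 with PGE2 added and 1145, 1218 and 1248 with valinomycin added. PGE2 was highest and no stimulus next without overlap, and the IL-4 and valinomycin groups overlapped. IL-4 lowered Itgam (-0.27 ± 0.043, adjusted p = 1.28e-05) and PGE2 raised it against IL-4 (0.55 ± 0.043, adjusted p = 1.45e-10). Libraries of the control shRNA read 549.6, 387 and 482 CPM without stimulus, 519, 366 and 479.6 with IL-4 and 766, 565 and 760.1 with PGE2. With the Etv1 hairpin they read 477, 407 and 446 CPM without stimulus, 514, 442 and 499 with IL-4 and 629, 562 and 635 with PGE2. The control and Etv1 shRNA groups overlapped in every condition. PGE2 raised Itgam in control shRNA cells (0.62 ± 0.15, adjusted p = 0.00259) and missed the threshold in Etv1 shRNA cells (0.33 ± 0.15, adjusted p = 0.0878), with a difference between the responses of -0.29 ± 0.21 (adjusted p = 0.442). In the alternative fit with the library number in the model, the rise in Etv1 shRNA cells and this difference both passed. The IL-4 difference seen in wild type cells was -0.056 ± 0.15 (adjusted p = 0.814) in control and 0.13 ± 0.15 (adjusted p = 0.642) in Etv1 shRNA cells.

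Of 8 beta 2 integrin genes tested in wild type cells, PGE2 raised 1 and lowered 5 (Icam1, Icam2, Itgal, Itgax and Tln1), with a list median of -0.35 while Itgam itself rose. Over all genes tested PGE2 called 59.4%, 3837 higher and 3780 lower. The raised gene was Fermt3 (0.39), kindlin-3, which activates integrins from the inside. Tln1, talin-1, fell with PGE2 (-0.43), and Itgal, the alpha chain of LFA-1, fell with IL-4 (-1.08) and with PGE2 (-0.26). Itgad had 1 count over its lowest group.

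Cd14 (chromosome 18), the co-receptor that hands lipopolysaccharide to Tlr4 and Ly96, had the widest range of the 8 genes. It read 211, 218 and 234 CPM in unstimulated wild type libraries, 57.5, 60.2 and 74.5 with IL-4, 1081, 1230.1 and 1531 with PGE2 added and 51.6, 57.2 and 67.6 with valinomycin added. PGE2 libraries lay far above all others, and the IL-4 and valinomycin groups overlapped. IL-4 lowered Cd14, with a log2 fold change of -1.78 ± 0.16 (adjusted p = 1.3e-05), and PGE2 raised it by 4.32 ± 0.17 (adjusted p = 1.55e-08), a fold of 20.0. Valinomycin left a difference of -0.13 ± 0.17 (adjusted p = 0.605) against IL-4, and the PGE2 group was above the valinomycin group by 4.45 ± 0.17 (adjusted p = 1.08e-08). Control shRNA libraries read 679, 485 and 638 CPM without stimulus, 100.2, 117 and 104 with IL-4 and 1734, 3252 and 1952 with PGE2. Etv1 shRNA libraries read 169.7, 122 and 200.2 CPM without stimulus, 53.0, 43.7 and 62.1 with IL-4 and 367, 496 and 436 with PGE2. Both backgrounds had the wild type pattern, a fall with IL-4 (-2.49 ± 0.26, adjusted p = 5.14e-06 and -1.63 ± 0.26, adjusted p = 0.000577) and a rise with PGE2 (4.43 ± 0.28, adjusted p = 1.46e-08 and 3.03 ± 0.27, adjusted p = 8.73e-07). The highest PGE2 library of the control shRNA, at 3252 CPM, lay well above the other 2, at 1734 and 1952 CPM.

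Among 10 listed partners of Cd14 in lipopolysaccharide sensing, all tested in wild type cells, PGE2 raised 6 and lowered 2 (Cd180 and Ticam1), with a list median of 0.54. IL-4 raised 3 (Ly86, Ticam1 and Tlr4) and lowered 4 (Cd180, Lbp, Tirap and Tlr2), with a median of -0.082. Over all genes tested PGE2 called 59.4% and IL-4 46.4%. Cd180, a Toll-like receptor relative that limits Tlr4 signalling, fell with IL-4 (-1.23) and with PGE2 (-1.15). Myd88, the adaptor of most Toll-like receptors, rose with PGE2 (0.30) and fell with valinomycin (-0.44), while Ticam1, the adaptor of the other branch, fell with PGE2 (-0.27) and rose with valinomycin (0.79). Lbp had 2 counts over its lowest group. Tlr4, named here after its value was seen, rose with PGE2 (0.74 ± 0.089, adjusted p = 5.82e-06).

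Cd68 (chr11:69664213-69666153, minus strand) encodes macrosialin, a membrane glycoprotein of late endosomes and lysosomes. In wild type libraries it read 1731, 1675 and 1663 CPM without stimulus, 1636, 1717 and 1613 with IL-4, 1235, 1233 and 1200.3 with PGE2 added and 1631, 1576 and 1516 with valinomycin added. The PGE2 libraries lay below all others and the other 3 groups overlapped with their neighbours. PGE2 lowered Cd68, with a log2 fold change of -0.44 ± 0.044 (adjusted p = 9.21e-09), and IL-4 left it at -0.029 ± 0.044 (adjusted p = 0.617). Control shRNA libraries read 1124, 1141 and 1106 CPM without stimulus, 1125, 1178 and 1143 with IL-4 and 842, 811 and 844 with PGE2. Etv1 shRNA libraries read 657, 640.1 and 617 CPM without stimulus, 639, 657 and 660.1 with IL-4 and 533, 545 and 519 with PGE2. Every Etv1 shRNA library lay below every control shRNA library. PGE2 lowered Cd68 in control (-0.46 ± 0.045, adjusted p = 3.58e-08) and in Etv1 shRNA cells (-0.29 ± 0.045, adjusted p = 2.49e-05). Cd68 is the 1 gene of the 8 that IL-4 did not change past the threshold in any of the 3 kinds of cells.

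Lyz2 (chr10:117277331-117282321, minus strand) encodes lysozyme M, which cuts bacterial cell walls, and took 0.406% to 1.43% of all counts of a library. Wild type libraries read 11289.8, 11206 and 11659.8 CPM without stimulus, 8579, 8006 and 9372 with IL-4, 8026, 9269.6 and 9679 with PGE2 added and 6965, 7756 and 7326 with valinomycin added. The unstimulated libraries were highest and the valinomycin libraries lowest, without overlap, and the IL-4 and PGE2 groups overlapped. IL-4 lowered Lyz2, with a log2 fold change of -0.40 ± 0.065 (adjusted p = 3.08e-05). Valinomycin also lowered it, at -0.24 ± 0.065 (adjusted p = 0.00657), a call lost without the third IL-4 library (-0.17). The control shRNA gave 12433, 13724 and 14484 CPM without stimulus, 9668, 11575 and 10633 with IL-4 and 11940.1, 13301 and 11647 with PGE2. Those with the Etv1 hairpin read 4356, 4343 and 4503 CPM without stimulus, 3979.8, 4085 and 3877 with IL-4 and 4331, 4358 and 4619 with PGE2. All 9 Etv1 shRNA libraries lay below all 9 control shRNA libraries, the highest at 4619 and the lowest control at 9668 CPM. IL-4 lowered Lyz2 in control shRNA cells (-0.35 ± 0.070, adjusted p = 0.000534), with -0.14 ± 0.070 (adjusted p = 0.183) in Etv1 shRNA cells. PGE2 raised it in control shRNA cells (0.21 ± 0.070, adjusted p = 0.0144), a call lost without IL-4 library 1 (0.15) or PGE2 library 2 (0.15) of the control shRNA. In Etv1 shRNA cells every PGE2 library also lay above every IL-4 library. That rise did not pass the main test and passed in the alternative fit with the library number in the model.

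The neighbouring gene Lyz1 encodes the lysozyme of Paneth cells, and its transcript aligned to that of Lyz2 with 91.95% identical positions, so reads could be placed at the wrong copy. Lyz1 had 12 to 112 counts per library, beside 32390 to 324074 counts of Lyz2. Lyz1 fell with IL-4 in wild type cells (-0.45) as Lyz2 did. Of 6 lysozyme and lysosomal membrane genes, 5 were tested, and IL-4 lowered 3 of these in wild type cells, namely Lyz1, Scarb2 (-0.33) and Lamp2 (-0.32). Over all genes tested IL-4 called 46.4% and PGE2 59.4%. Scarb2, a lysosomal membrane receptor, was also the 1 gene of the list that PGE2 raised (0.16). Lamp3 had 0 counts over at least 1 group.

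Maf (chr8:115682942-115707794, minus strand) encodes c-Maf, a large MAF factor known for driving Il10 in macrophages. In wild type libraries it read 349.7, 348 and 379 CPM without stimulus, 248, 201 and 215 with IL-4, 739, 668 and 695 with PGE2 added and 157, 167 and 169 with valinomycin added. The 4 groups did not overlap, in the order PGE2, no stimulus, IL-4 and valinomycin. IL-4 lowered Maf, with a log2 fold change of -0.70 ± 0.062 (adjusted p = 6.82e-09). PGE2 raised it by 1.66 ± 0.063 (adjusted p = 3.75e-15), a fold of 3.16, and valinomycin lowered it, at -0.43 ± 0.064 (adjusted p = 1.88e-05), so PGE2 and valinomycin moved Maf in opposite directions. Control shRNA libraries read 118, 107 and 106 CPM without stimulus, 97.2, 83.5 and 88.6 with IL-4 and 401, 291 and 412 with PGE2. Under the Etv1 hairpin Maf read 191, 211 and 191 CPM without stimulus, 239, 222 and 201 with IL-4 and 541, 496 and 539 with PGE2. Every Etv1 shRNA group lay above the control shRNA group of its condition. PGE2 raised Maf in control (2.03 ± 0.11, adjusted p = 7.96e-11) and Etv1 shRNA cells (1.25 ± 0.11, adjusted p = 4.94e-08). The fall with IL-4 in control shRNA cells (-0.29 ± 0.11, adjusted p = 0.0461) lost its call without library 1, 2 or 3 of the unstimulated group (-0.24 to -0.32) or library 2 or 3 of the IL-4 group (-0.24 and -0.28), and the difference in Etv1 shRNA cells was 0.16 ± 0.11 (adjusted p = 0.37). An antisense gene that overlaps Maf, Gm15655, had 0 to 12 counts per library.

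The small MAF factors, which lack an activation domain and pair with other bZIP proteins, differed in direction. In wild type cells Mafg fell with IL-4 (-0.29) and rose with PGE2 (0.62), the directions of Maf, but rose with valinomycin (0.22), where Maf fell. Mafk fell with PGE2 (-0.29) and rose with valinomycin (1.40), the other way from Maf in both, and was at 0.011 with IL-4, which did not pass the test. The IL-4 and PGE2 groups of Mafk overlapped. Maff, named after its values were seen, rose with IL-4 (0.84), PGE2 (0.47) and valinomycin (1.73), so it shared the direction of Maf with PGE2 alone. In control shRNA cells Mafg also fell with IL-4 (-0.40) and rose with PGE2 (0.42), and Maff rose with PGE2 (1.25). Mafk with PGE2 (0.11) and Maff with IL-4 (0.20) did not pass there. Nrl, a large MAF factor of photoreceptors, had 0 counts in every group. These values are log2 fold changes, and those said to rise or fall passed the test.

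Under the Etv1 hairpin the 8 genes parted. Csf1r, Cd68, Lyz2 and Cd14 were lower than with the control shRNA in all 3 conditions, Adgre1 and Maf were higher in all 3, Mertk was lower without stimulus and with IL-4, and Itgam passed the test in none. In the alternative fit with the library number in the model, Itgam was called lower with IL-4 and PGE2. Without stimulus 2 genes were higher and 5 lower, while 51.7% of all genes tested were called. With IL-4 the counts were also 2 and 5 (against 51%), and with IL-4 and PGE2 they were 2 and 4 (against 54.3%). The medians of the 8 genes were -0.53, -0.50 and -0.42, beside -0.012, -0.0043 and -0.0012 over all genes tested. Each condition shares its libraries with no other, and all rest on 1 Etv1 hairpin group. Same-numbered shRNA libraries correlated above 0.1 in 34 of 45 pairs and others in 7 of 90. The 3 comparisons can therefore not be taken as separate replications.

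Lyz2 was lower with the Etv1 hairpin in each condition: -1.62 ± 0.072 (adjusted p = 1.58e-12) without stimulus, -1.42 ± 0.072 (adjusted p = 9.05e-12) with IL-4 and -1.47 ± 0.072 (adjusted p = 4.98e-12) with PGE2. Cd68 differed by -0.82 ± 0.045 (adjusted p = 3.07e-11), -0.82 ± 0.045 (adjusted p = 3.23e-11) and -0.65 ± 0.045 (adjusted p = 6.88e-10) in the same order. For Csf1r the differences were -0.64 ± 0.048 (adjusted p = 1.74e-09), -0.61 ± 0.048 (adjusted p = 3.29e-09) and -0.71 ± 0.048 (adjusted p = 4.16e-10). Cd14 was lower, at -1.87 ± 0.25 (adjusted p = 3.68e-05) without stimulus, -1.02 ± 0.26 (adjusted p = 0.00561) with IL-4 and -2.42 ± 0.25 (adjusted p = 3.27e-06) with PGE2, the widest span of the 8 genes over the conditions. Mertk was at -0.42 ± 0.13 (adjusted p = 0.0134) without stimulus, -0.38 ± 0.13 (adjusted p = 0.0184) with IL-4 and -0.023 ± 0.13 (adjusted p = 0.902) with PGE2. The Mertk call without stimulus was lost without control shRNA library 2 (-0.25), and the call with IL-4 was lost without Etv1 shRNA library 2 (-0.34) or control shRNA library 2 (-0.31) of the IL-4 groups.

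Adgre1 was higher with the Etv1 hairpin by 1.0 ± 0.21 (adjusted p = 0.00137), 0.79 ± 0.21 (adjusted p = 0.00677) and 0.91 ± 0.21 (adjusted p = 0.00245), and Maf by 0.84 ± 0.11 (adjusted p = 5.06e-06), 1.29 ± 0.11 (adjusted p = 4.52e-08) and 0.51 ± 0.10 (adjusted p = 0.000502), each in the order no stimulus, IL-4, and IL-4 with PGE2. The IL-4 response differed between hairpins in 0 of the 8 genes by edgeR, while 4.51% of all genes did. At an unadjusted p under 0.05 there were 2, Cd14 (0.86 ± 0.36, adjusted p = 0.249) and Maf (0.45 ± 0.15, adjusted p = 0.116), and DESeq2 also called 0. The PGE2 response differed in 2 genes, both smaller on the log2 scale with the Etv1 hairpin, while 11.6% of all genes differed. The alternative fit with the library number in the model also called Itgam. Cd14 rose less, with a difference of -1.40 ± 0.36 (adjusted p = 0.0221), a call lost without IL-4 library 1 or 3 of the control shRNA, IL-4 library 3 of the Etv1 shRNA or PGE2 library 1 of the Etv1 shRNA, where the value was -1.27 to -1.38. The log2 rise of Maf was also smaller, with a difference of -0.78 ± 0.15 (adjusted p = 0.00236). Mean Maf went from 89.8 to 368 CPM in control and from 220 to 525 CPM in Etv1 shRNA cells. The smaller rise thus held for the ratio and not for the difference in mean CPM. Maf started from a higher level with IL-4 in Etv1 shRNA cells and ended higher as well, while Cd14 was lower at both ends.

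**Figure D3:**
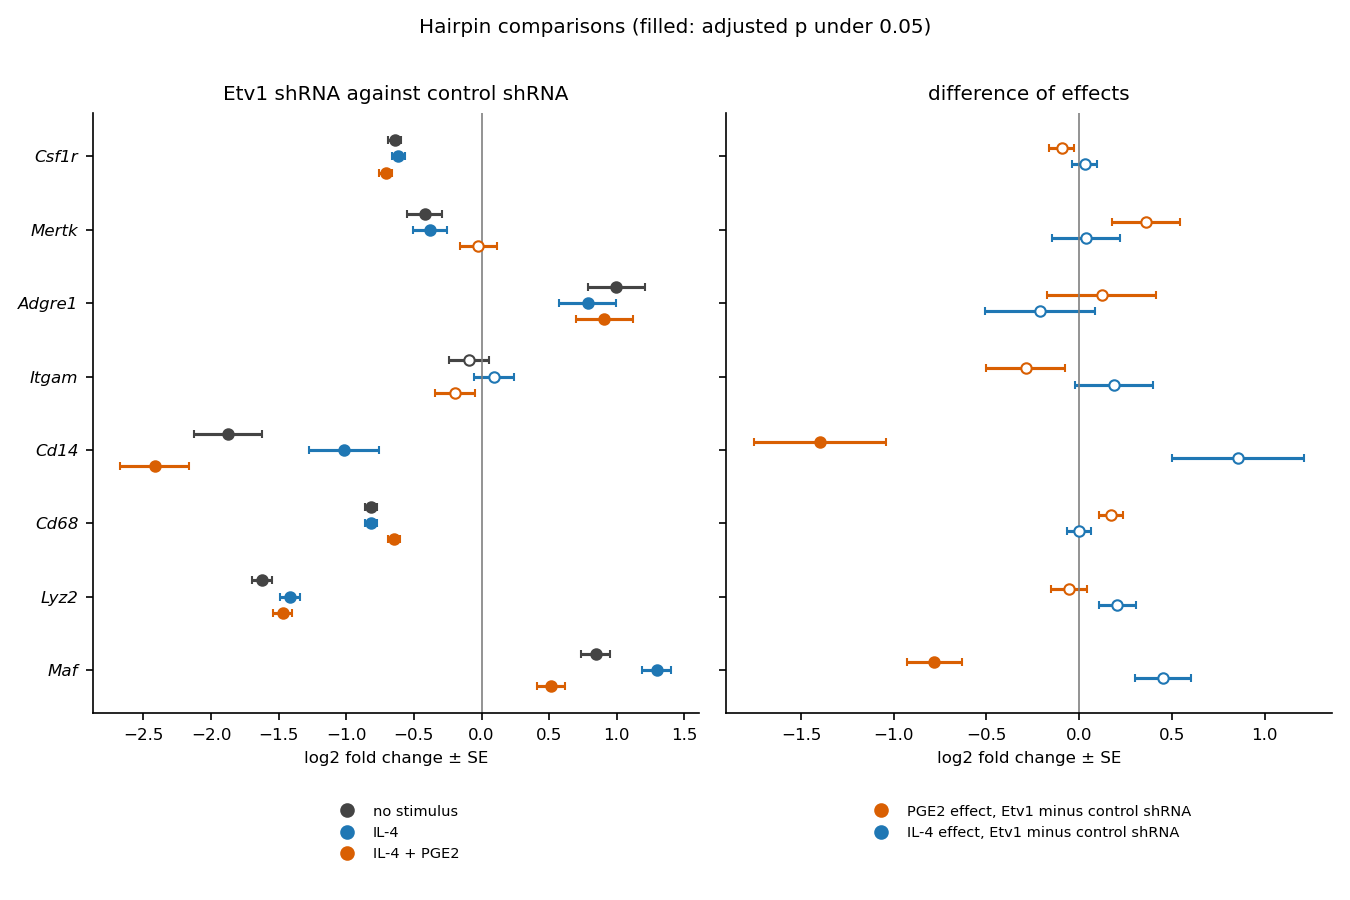
Log2 fold change ± SE of each gene between Etv1 and control shRNA cells in 3 conditions (left) and the difference between the hairpins in the response to PGE2 or IL-4 (right); filled points passed an adjusted p under 0.05. Adgre1 and Maf lie above 0 and Csf1r, Cd14, Cd68 and Lyz2 below 0 in all 3 conditions, and on the right Cd14 and Maf are the filled points.

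Most other macrophage markers were also lower with the Etv1 hairpin. Of 20 listed, 19 were tested, and 15 were lower and 1 higher without stimulus, 14 and 1 with IL-4, and 13 and 2 with PGE2, with medians of -0.88, -0.72 and -0.87. Of all genes tested, 3321 were lower and 3084 higher without stimulus (51.7% called), 3172 and 3145 with IL-4 (51%), and 3307 and 3415 with PGE2 (54.3%). Cx3cr1, the fractalkine receptor, was lower in all 3 conditions (-4.46, -2.01 and -1.25). Msr1, the class A scavenger receptor, was lower without stimulus (-1.13) and with IL-4 (-0.34), and Mrc1, the mannose receptor, had 0.21, -0.72 and -1.28, none of which passed. The marker that was higher in every condition was Cd163, the haemoglobin scavenger receptor (1.50, 1.57 and 1.37), and Trem2 was the other higher one with PGE2 (0.17); both are named after their values were seen. Vsig4 had 0 counts over at least 1 group. In wild type cells IL-4 raised 3 (Clec7a, Lgals3 and Mrc1) and lowered 12 of the 19, and PGE2 raised 6 and lowered 7. There IL-4 called 46.4% and PGE2 59.4% of all genes tested. The summed level of the 20 markers was 14159 to 18315 CPM in control shRNA libraries and 7356 to 9161 CPM in Etv1 shRNA libraries.

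Most lineage transcription factors were lower as well. All 16 listed were tested, and 13 were lower and 0 higher without stimulus, 12 lower and 1 higher (Id3) with IL-4, and 12 lower and 2 higher (Cebpa and Tfeb) with PGE2, with medians of -0.73, -0.78 and -0.53. The shares called over all genes tested were 51.7%, 51% and 54.3% in the same order. By edgeR at an unadjusted p under 0.05, 1 factor was higher without stimulus, Tfeb (0.19). Bhlhe40, a basic helix-loop-helix repressor, was lower in all 3 (-1.55, -1.59 and -1.60), as was Mitf (-1.01, -1.18 and -0.44), the relative of Tfec that controls lysosomal and osteoclast genes. Tfec was lower with IL-4 (-0.74) and with PGE2 (-0.54). Myb had 0 counts over at least 1 group. Spi1, which encodes PU.1, is named here after its value was seen, and was lower, at -0.18 ± 0.064 (adjusted p = 0.0225) without stimulus. In wild type cells IL-4 raised 8 and lowered 4 (Bhlhe41, Id3, Irf8 and Nr1h3) of the 16 and PGE2 raised 2 (Myb and Tfec) and lowered 9, where Tfec (2.67) and Bhlhe40 (1.83) rose most with IL-4. There IL-4 called 46.4% and PGE2 59.4% of all genes tested.

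The small MAF factors were also read under the Etv1 hairpin. Mafk was lower in all 3 conditions (-0.57, -0.38 and -0.82), the other way from Maf, and so was Maff (-0.70, -0.72 and -1.47). Mafg was higher with IL-4 (0.38) and with PGE2 (0.25), as Maf was, but not without stimulus (0.0086 ± 0.062, adjusted p = 0.925), where Maf was higher.

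**Figure D4:**
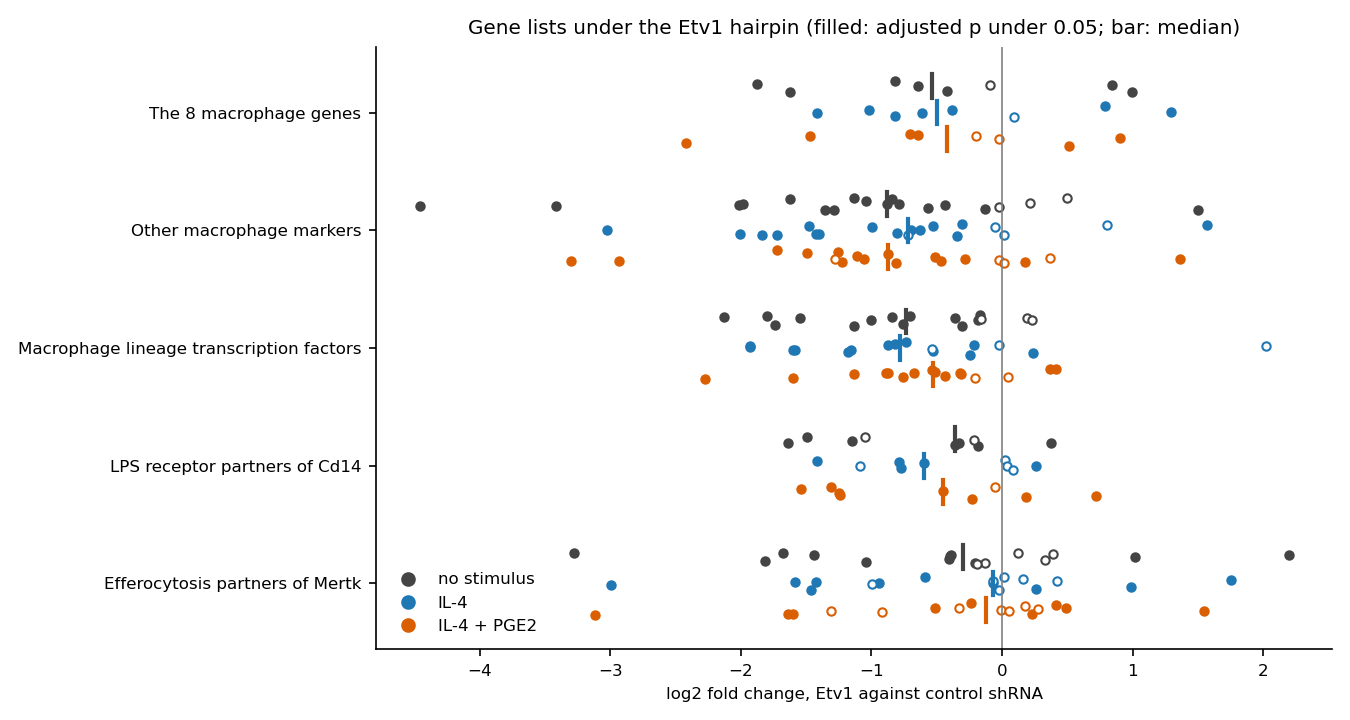
Log2 fold change between Etv1 and control shRNA cells for the 8 genes and 4 related lists (1 point per gene tested, bar at the median, filled where the adjusted p was under 0.05) without stimulus (dark grey), with IL-4 (blue) and with IL-4 and PGE2 (orange). The medians of all 5 sets lie below 0 in each condition.

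Among the 13 CSF-1 receptor genes tested, 1 was higher (Dok2) and 8 lower with the Etv1 hairpin without stimulus, where 51.7% of all genes tested were called, 3084 higher and 3321 lower. Of 9 lipopolysaccharide receptor genes, 1 was higher (Tirap) and 6 lower, and of 7 beta 2 integrin genes 2 were higher (Fermt3 and Icam1) and 4 lower (Icam2, Itgal, Itgb2 and Tln1). Of 16 efferocytosis genes, 2 were higher (Itgav and Tyro3) and 9 lower. Of the 5 lysosomal genes 4 were lower (Cd63, Lamp2, Lyz1 and Scarb2), and of the 5 adhesion receptors 1 was higher (Adgre4) and 3 lower (Adgrg1, Adgrg3 and Adgrg6). The medians of these lists, in the same order, were -0.39, -0.36, -0.27, -0.30, -0.34 and -0.92.

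Markers of other cells were read beside these differences. Cd34, a progenitor marker, averaged 26.7 CPM without stimulus, 40.4 with IL-4 and 54.2 with PGE2 in control shRNA cells, and 3.31, 4.24 and 6.45 CPM in Etv1 shRNA cells. Summed markers of progenitors, Kit and Cd34, were thus 24.7 to 62.7 CPM in control and 2.96 to 8.48 CPM in Etv1 shRNA libraries. Nearly all of this sum was Cd34. Kit averaged 0.076, 0.175 and 0 CPM in control and 0.071, 0.066 and 0.029 CPM in Etv1 shRNA cells. It was too low to be tested there. In wild type cells, a separate experiment, the group means of Cd34 were 3.48 to 4.83 CPM. Neutrophil markers summed to 6.02 to 21.5 CPM in control and 2.65 to 8.01 CPM in Etv1 shRNA libraries, with 3 to 8 of the 12 at 0 counts in a group. Most of these sums was Mmp8. Its means were 8.83, 10.4 and 10.6 CPM in control and 3.91, 5.03 and 4.15 CPM in Etv1 shRNA cells. Pecam1, an adhesion molecule of endothelial cells that macrophages can also express, moved with the stimuli, from 2.50 CPM in unstimulated wild type cells to 72.7 with IL-4 and 188 with PGE2. The other endothelial markers stayed low there, Cdh5 at 0.97, 0.40 and 1.58 CPM and Tie1 at 0.27, 0.40 and 0.20 CPM. With the Etv1 hairpin Pecam1 was lower with IL-4 (log2 fold change -1.07) and with PGE2 (-1.31). Without stimulus its difference (-1.43) did not pass. Cdh5 was higher with PGE2, at 1.81 against 1.02 CPM. The part of such cells in the hairpin and stimulus differences was not tested.

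For each of the 8 genes, the 3 most similar profiles were sought by Pearson's r of log2 CPM over the 12 wild type libraries, among 8638 genes of at least 10 CPM, with r over the 18 shRNA libraries beside it. These libraries form 4 and 6 groups, so r mostly follows the group means and is given as a description. For Maf they were Mmd (r = 0.990 over wild type and 0.955 over shRNA libraries), Apobr (r = 0.988 over wild type and 0.757 over shRNA libraries) and Castor2 (r = 0.987 over wild type and 0.911 over shRNA libraries). For Cd14 they were Apobr (r = 0.995 over wild type and 0.512 over shRNA libraries), Phf1 (r = 0.995 over wild type and 0.906 over shRNA libraries) and Emb (r = 0.994 over wild type and 0.716 over shRNA libraries). Itgam was most like Cd14 (r = 0.991 over wild type and 0.606 over shRNA libraries), Zdhhc14 (r = 0.991 over wild type and 0.671 over shRNA libraries) and Crybg3 (r = 0.988 over wild type and 0.802 over shRNA libraries), so Cd14 led its list. Adgre1 was most like Ggt5 (r = 0.995 over wild type and 0.813 over shRNA libraries), Fcrls (r = 0.994 over wild type and 0.952 over shRNA libraries) and P2ry6 (r = 0.993 over wild type and -0.356 over shRNA libraries). The profile of Cd68 was shared by Uap1l1 (r = 0.988 over wild type and 0.894 over shRNA libraries), Adam17 (r = 0.987 over wild type and 0.786 over shRNA libraries) and Vav2 (r = 0.985 over wild type and 0.640 over shRNA libraries). That of Csf1r was shared by Ppp1r18 (r = 0.991 over wild type and 0.431 over shRNA libraries), Ap2a2 (r = 0.985 over wild type and 0.122 over shRNA libraries) and Snx3 (r = 0.983 over wild type and -0.700 over shRNA libraries). Lyz2 had Cmpk2 (r = 0.985 over wild type and 0.481 over shRNA libraries), Pam (r = 0.961 over wild type and -0.809 over shRNA libraries) and Ptpro (r = 0.951 over wild type and -0.541 over shRNA libraries). Mertk had Cep55 (r = 0.983 over wild type and -0.0174 over shRNA libraries), Fam111a (r = 0.980 over wild type and 0.235 over shRNA libraries) and Dapk1 (r = 0.977 over wild type and 0.548 over shRNA libraries). Over the shRNA libraries r was 0.757 to 0.955 for the 3 genes of Maf and 0.640 to 0.894 for those of Cd68. It was 0.606 to 0.802 for those of Itgam and 0.512 to 0.906 for those of Cd14. At least 1 gene of Csf1r, Adgre1, Lyz2 and Mertk had a negative r there, which for Mertk was only -0.0174.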

How the data were processed

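RNA-seq counts per gene were deposited for 30 libraries, 3 in each of 10 groups. Per the submitters' processing notes, the authors' work involved STAR, featureCounts, DESeq2 and deepTools with GRCm38, and versions and the strand setting are not given in the sources used here. The deposited values are raw, whole-number counts with Ensembl IDs, of which 97.52% matched GENCODE M21, and unmatched IDs held 0.153% of reads. Symbols, lengths and coordinates came from GENCODE M21 and promoters from RefSeq.

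The wild type and shRNA experiments were fitted separately, all groups of each together, in edgeR 4.0.16 (R 4.3.3): low-count filter, TMM scaling, robust quasi-likelihood test, Benjamini-Hochberg adjustment over all genes tested, calls at 0.05. The SE is the fold change divided by the square root of F. The fit was tested on simulated data. Libraries had 6924973 to 30473040 counts, and a limit of 3 counts corresponds to 0.108 to 0.403 CPM in the shRNA libraries, for counting error only. Replicate libraries differed by more than sampling noise. Alternatives were DESeq2 1.42.0, its size factors in edgeR, no low-count filter, a replicate block and leaving out each library. A joint fit of all libraries was added after the values were seen.

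The 8 genes and the lists were chosen with earlier results of these data known. The rule for other names was in each list, the 3 genes of lowest adjusted p in wild type comparisons, those under 3 counts over a group, and the 3 profiles most like each of the 8. Figures were drawn with matplotlib 3.10.9 under Python 3.11.15, and transcripts were aligned with Biopython 1.88. A result on 1 further gene of the MAF list, and the counts of that list, are not reported here.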

Additional observations from a re-analysis of the deposited data

Results flagged for a closer look

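The PGE2 response differed between the hairpins for Cd14 and Maf by the interaction test of edgeR. The difference, Etv1 minus control shRNA, was -1.40 for Cd14 and -0.78 for Maf on the log2 scale. Both genes rose with PGE2 under both hairpins.

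Mertk differed between control shRNA and wild type cells in both of its responses. The difference, control shRNA minus wild type, was 1.24 for IL-4 and -0.59 for PGE2 on the log2 scale. The wild type and shRNA libraries are separate experiments, so the source of the difference cannot be told apart.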

How the results depend on the processing

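Across 1392 recomputed values of the 8 genes, 1347 stayed on their side of the threshold, 20 lost a call and 25 gained one. No value called in either fit changed sign, and 35 values called in neither did. The number of the 8 genes whose PGE2 response differed between hairpins was 2, and 1 to 2 when single libraries were left out. For the difference of the IL-4 effects between control shRNA and wild type cells the number was 1, and became 2 with DESeq2 size factors in edgeR, 3 without a low-count filter, 2 with DESeq2 and 1 to 2 when single libraries were left out. For the PGE2 effects it was 1, and became 2 with those size factors, without the filter and with DESeq2, and 1 to 2 when single libraries were left out. The causes were not tested.

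Same-numbered libraries correlated above 0.1 in 34 of 45 shRNA pairs (median 0.15) and 5 of 18 wild type pairs, and differently numbered ones in 7 of 90 shRNA pairs (median -0.089) and 0 of 36 wild type pairs. The labels name no shared source and not every same-numbered pair was above 0.1, so the block was kept as an alternative, although in the shRNA experiment the numbers track a shared deviation. As a hint from the data, 17 of 18 shRNA and 9 of 12 wild type libraries correlated best with their own number. With the replicate block, both joint differences had 2 genes. In the shRNA experiment the block added calls for Adgre1 with PGE2 in control shRNA cells (-0.30), Adgre1 with IL-4 in Etv1 shRNA cells (0.42), Lyz2 (0.16) and Itgam (0.33) with PGE2 in Etv1 shRNA cells, Itgam between hairpins with PGE2 (-0.19), and the difference of its PGE2 effects (-0.29).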
